A study of Mus musculus with 6 samples.

Results

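Chromosome 4 of the mouse was examined in Mll-AF9 leukemia cells that had or lacked Rpl22, a gene of the large ribosomal subunit that itself lies on this chromosome. The members were the genes that the deposited comparison table places on chromosome 4 (GRCm39 build) and that had a mean of at least 50 estimated reads over the 6 libraries. They numbered 734, of 946 chromosome 4 genes in that table and of 11999 genes of all chromosomes that met the same minimum. The chromosome was chosen by measured values, the fold changes of its genes between the same Rpl22-/- and Rpl22+/+ libraries, so its shift between the genotypes is described here without a test.

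The data were poly(A) RNA-seq of CD11b+Gr1+ cells, a myeloid fraction sorted from the spleens of tumor-bearing mice that all carried an Mll-AF9 knockin allele, the fusion oncogene that drives the leukemia. The Rpl22+/+ group (3 libraries) kept both copies of Rpl22, the Rpl22-/- group (3 libraries) was homozygous for the disrupted gene, and no drug treatment is named for either. Per the study's methods the Rpl22-deficient colony was on a C57BL/6 background after backcrossing, and its mice are described as young adults in general. The methods add that animals with the Mll-AF9 allele were killed once ill or at set times, and the age behind each library is not given in the sources used here. The study names a single mouse per genotype for the explanted leukemias, and no label ties a library to an animal, so the spread given below is between libraries and may be technical. The SEs, intervals and p-values below rest on that spread. If each genotype comes from a single leukemia, a difference between genotypes cannot be told apart from one between leukemias. The shallowest library was Rpl22-/- replicate 1 (35828500 estimated reads) and the deepest Rpl22-/- replicate 3 (102866127).

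In most genes the amount of transcript follows the number of gene copies, so a chromosome present in 3 copies in place of 2 gives about 1.5 times the RNA, a difference of 0.58 on the log2 scale. Single genes can depart from this where feedback, a limiting regulator or a change of cell state sets their level. Gains and losses of whole chromosomes are common in leukemia cells, but a higher transcript level is not a count of DNA copies. DNA copy number was not measured in these samples, and the ratio of 3 to 2 serves below only as a mark on the scale. In sorted cells as in any bulk RNA, fewer cells of a type and less RNA per cell cannot be told apart.

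Before the values, 4 promoters show the range of genes on this chromosome. RefSeq (GRCm38.p6) lists the bases around the start of 581 of the 734 members, and the 250 bases before the start are printed 5′ to 3′ on the strand of the gene, with each CpG in capitals. Hmgn2 (chr4:133967992-133968241, minus strand), a nucleosome-binding protein, and Rpl11 (chr4:136053394-136053643, minus strand), a ribosomal protein, stand for abundant genes whose 95% interval of the log2 fold change held log2(1.5) and not 0, with fold changes of 0.95 and 0.81 on that scale. Angptl7 (chr4:148500463-148500712, minus strand), a secreted angiopoietin-like protein, and Lin28a (chr4:134018817-134019066, minus strand), an RNA-binding protein that blocks let-7 maturation, had the largest log2 fold changes upward and downward, pseudogenes and a symbol shared by several identifiers aside.

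Hmgn2: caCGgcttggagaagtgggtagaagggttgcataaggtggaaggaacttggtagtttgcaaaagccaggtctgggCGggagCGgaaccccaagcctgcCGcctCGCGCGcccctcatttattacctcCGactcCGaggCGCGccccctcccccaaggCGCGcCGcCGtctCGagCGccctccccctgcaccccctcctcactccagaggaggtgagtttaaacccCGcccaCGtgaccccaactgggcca
Rpl11: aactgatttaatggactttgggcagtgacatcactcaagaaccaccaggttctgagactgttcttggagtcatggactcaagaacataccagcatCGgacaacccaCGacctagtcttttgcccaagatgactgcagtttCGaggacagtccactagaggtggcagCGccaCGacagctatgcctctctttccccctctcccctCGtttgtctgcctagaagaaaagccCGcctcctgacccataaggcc
Angptl7: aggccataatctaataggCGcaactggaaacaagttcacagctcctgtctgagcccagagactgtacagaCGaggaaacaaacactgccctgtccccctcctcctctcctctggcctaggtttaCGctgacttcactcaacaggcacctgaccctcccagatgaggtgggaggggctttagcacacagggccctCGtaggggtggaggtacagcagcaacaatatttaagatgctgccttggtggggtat
Lin28a: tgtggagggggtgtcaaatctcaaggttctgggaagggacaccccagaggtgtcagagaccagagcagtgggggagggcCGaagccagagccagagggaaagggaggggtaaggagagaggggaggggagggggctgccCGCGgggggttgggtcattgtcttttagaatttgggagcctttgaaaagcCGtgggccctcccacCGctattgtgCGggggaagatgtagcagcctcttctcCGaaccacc

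These promoters held 19, 7, 4 and 7 CpG, in the order printed. Over the 581 matched members the median was 16 CpG (quartiles 10 and 22), against 6 (quartiles 2 and 16) over all 27025 genes of the RefSeq table. The median was 16 in members whose 95% interval held log2(1.5) and not 0, 15 in those whose interval held 0 and not log2(1.5), and 13 in the 43 called members with a log2 fold change above 2 or below -2. The letters TATAAA, searched on both strands, were found in 6.89% of the members and 13.0% of all genes in windows of the same length. They stood in 5 of those 43 members and in 35 of the other 538, and in none of the 4 promoters printed. The genes of the RefSeq table were not filtered by reads, as the members were. Neither comparison with them, of CpG or of TATAAA, separates the chromosome from that filter.

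Rpl22 checks the labels, since it is the targeted gene. It lies on chromosome 4 from 152410199 to 152418528 and had 148, 235 and 152 CPM (reads scaled to a common library total, with TMM factors) in the Rpl22+/+ libraries and 58.3, 89.9 and 73.5 CPM in Rpl22-/-. Every Rpl22-/- library was below every Rpl22+/+ library, and transcript remained in all of them. It fell by 1.27 ± 0.25 (SE) on the log2 scale (adjusted p = 0.0106, edgeR), against a chromosome around it that was higher in Rpl22-/-.

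Among the sorting markers, Itgam (CD11b) was at 1837, 2085 and 1861 CPM in Rpl22+/+ and 1036, 994 and 815 CPM in Rpl22-/-. Ly6g, an antigen of Gr1, was at 149 to 178 CPM in Rpl22+/+ and only 11.1 to 15.7 CPM in Rpl22-/-. The 9 granulocyte and myeloid markers summed to between 32898 and 42023 CPM in Rpl22+/+ and between 39547 and 49999 CPM in Rpl22-/-, and no library lacked any of them. Their makeup differed between the genotypes, with 6 of the 9 at an adjusted p-value under 0.05. Mpo and Elane, proteins of primary granules, were at 1033 to 1854 and 565 to 934 CPM in Rpl22+/+ and at 9455 to 11272 and 6803 to 8428 CPM in Rpl22-/-, while Fcgr3, an Fc receptor, was at 239 to 332 CPM against 89.0 to 111 CPM and Cd33 at 289 to 489 CPM against 98.1 to 251 CPM. The part of this difference in the values below was not tested. 1 library, Rpl22+/+ replicate 2, stood apart in several results below. The counts and window values that rest on it are given with and without it.

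The median log2 fold change (Rpl22-/- over Rpl22+/+) of the 734 chromosome 4 genes was 0.43, with quartiles at 0.0064 and 0.85. Over 10231 genes of the other autosomes but 9, which is left out because it was shifted as well (median 0.34), the median was 0.0020 with quartiles at -0.44 and 0.37. The medians of those autosomes ran from -0.08 to 0.08. The shift of chromosome 4 was therefore 0.43, a ratio of 1.35, or 73.7% of the log2 distance that a ratio of 3 to 2 would give.

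**Figure D1:**
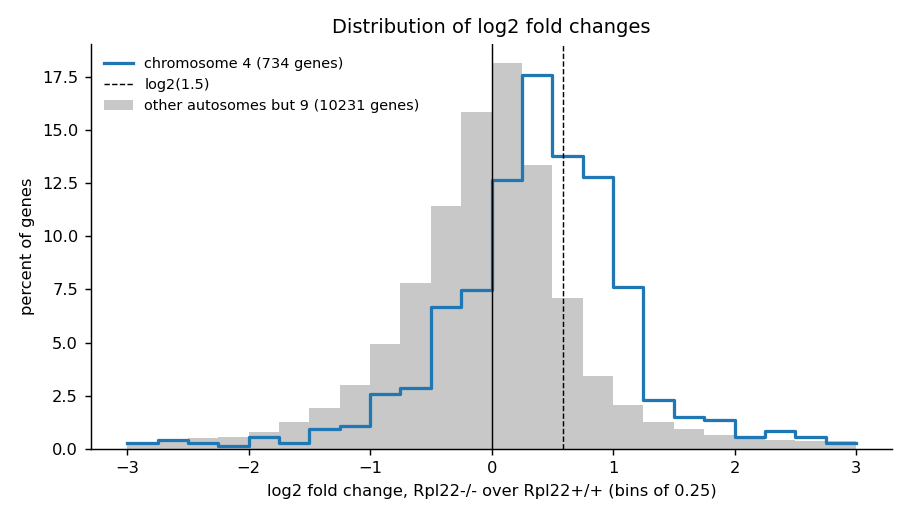
Percent of genes per bin of 0.25 log2 units of fold change, Rpl22-/- over Rpl22+/+, for the 734 chromosome 4 genes (line) and 10231 genes of the other autosomes but 9 (bars), with lines at 0 and at log2 of 1.5; 34 chromosome 4 genes lie beyond the range shown. The chromosome 4 distribution is displaced to the right, and its highest bin, from 0.25 to 0.5, holds 17.6% of the genes.

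The quartiles, the 5th percentile (-1.05 against -1.49 on the other autosomes) and the 95th percentile (2.23 against 1.45) were all higher on chromosome 4. Of the chromosome 4 genes, 552 (75.2%) had a log2 fold change above 0, against 50.1% on the other autosomes. Within 0.25 of log2(1.5) lay 32.0% of them against 16.5%, and within 0.25 of 0 lay 20.2% against 34.0%. On the log2 scale 41 genes (5.59%, against 3.21%) were above 2 and 17 (2.32%, against 2.87%) below -2.

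By single genes, 124 members (16.9%) were called higher in Rpl22-/- and 35 (4.77%) lower, where a call needs an adjusted p-value under 0.05 and a log2 fold change beyond 1 in size. Over all 16656 genes tested, 8.93% were called higher and 8.54% lower, and over the 10231 genes of the other autosomes but 9 the shares were 7.05% and 9.03%. At any size of change, 253 members (34.5%) were higher at an adjusted p-value under 0.05 and 53 (7.22%) lower, against 13.7% and 13.8% of all genes tested. For 363 members (49.5%) every Rpl22-/- library was above every Rpl22+/+ library and for 87 (11.9%) below, against 23.9% and 22.2% of all genes tested. These counts restate the contrast that chose the chromosome. The count of 253 depended on the libraries: it was 372 when Rpl22+/+ replicate 2 was left out, 156 and 129 when Rpl22+/+ replicate 1 or 3 was, and 167 and 168 when Rpl22-/- replicate 1 or 3 was.

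The shift was close to the same in each library. Set against the Rpl22+/+ mean, the median offset of chromosome 4 genes from the other autosomes was -0.016, 0.027 and -0.022 log2 units in the Rpl22+/+ libraries and 0.46, 0.44 and 0.42 in the Rpl22-/- libraries. The group means were -0.0036 ± 0.0268 and 0.44 ± 0.0193 (SD, n = 3 each), so the groups did not overlap. Over the 9 pairs of libraries of unlike genotype the offset ran from 0.39 to 0.48. Over the 3 pairs within Rpl22+/+ it ran from -0.041 to 0.045, and over the 3 pairs within Rpl22-/- from -0.032 to -0.0095. In the 9 pairs between genotypes no other autosome but 9 reached beyond -0.19 to 0.24.

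**Figure D2:**
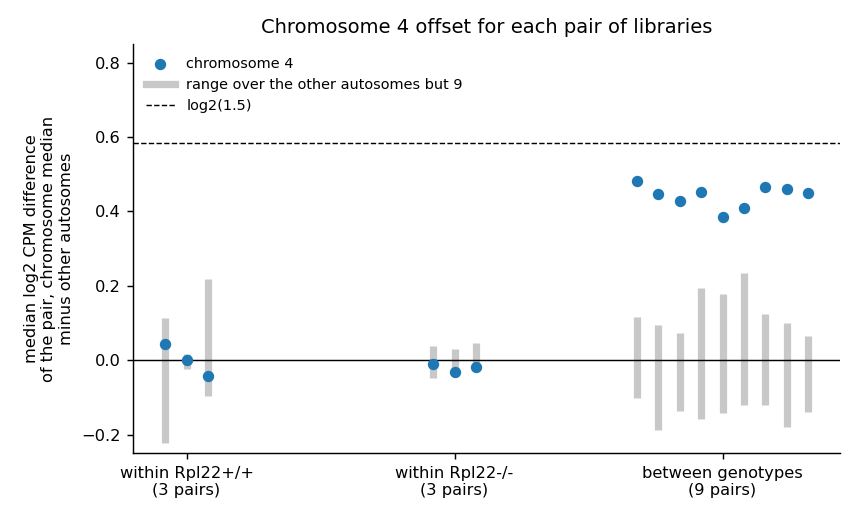
Median log2 CPM difference of chromosome 4 genes, minus that of the other autosomes but 9, for each of the 15 pairs of libraries (points), with the range over the single other autosomes for the same pair (grey bars). The 9 pairs between genotypes lie between 0.39 and 0.48, below log2 of 1.5 (dashed), and the 6 pairs within a genotype lie near 0.

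The shift was present at all levels of expression. Chromosome 4 genes minus other autosomes differed by 0.24 in median log2 fold change at a mean of 50 to 200 reads (70 genes on chromosome 4), by 0.47 from 200 to 1000 reads (150 genes), by 0.51 from 1000 to 3000 reads (182 genes), by 0.44 from 3000 to 10000 reads (228 genes) and by 0.40 above that (104 genes). Genes on the plus strand had a median of 0.42 (372 genes) and those on the minus strand 0.44 (362 genes). Of the 98 chromosome 4 genes of the table that fell under 50 reads but could be tested, 67 were above 0, with a median of 0.55, against 754 above 0 and a median of 0.03 for 1484 such genes elsewhere. The members nearest the minimum were Tmem125 (51.7 reads, log2 fold change 4.03) and Gabrd (52.4 reads, 3.25) inside it, and Dcdc2b (49.5 reads, 0.65) and Bspry (49.8 reads, -0.58) outside. Tmem125 and Gabrd met it through Rpl22-/-, with 294 and 286 reads there against 16 and 28 in Rpl22+/+.

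Along the chromosome, 15 of 16 windows of 10 Mb held at least 10 members, and each had a median log2 fold change above 0. The lowest was 0.24, from 80 to 90 Mb (19 genes, among them Rps6), and the highest 0.60, from 150 to 160 Mb (77 genes, among them Rpl22). The 2 windows with most genes had medians of 0.37 (130 to 140 Mb, 123 genes) and 0.43 (40 to 50 Mb, 94 genes). The SD of the 15 medians was 0.113, against 0.149 for 208 windows of the other autosomes, whose medians ran from -0.46 to 0.77. Of those 208 windows, 7 (3.37%) were at or above the lowest window of chromosome 4. Both comparisons rested on Rpl22+/+ replicate 2: without it 14 of the 15 windows were above the median of the other autosomes, the SDs were 0.203 and 0.197, and 88 of the 208 windows (42.3%) were at or above the lowest of chromosome 4. With all libraries, that number was 38 (18.3%) with a correction for GC content. It was 12 (5.77%) with that correction and the replicate number as a block, and 5 (2.40%) with the block alone.

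By library, 44 of the 45 window offsets in Rpl22-/- were above 0, the exception being -0.078 from 20 to 30 Mb in replicate 2. In 12 of the 15 windows all Rpl22-/- libraries were above all Rpl22+/+ libraries. In some windows the Rpl22+/+ libraries disagreed among themselves. From 20 to 30 Mb (11 genes) the offsets were 0.35, -0.53 and 0.21 in Rpl22+/+ and 0.35, -0.078 and 0.11 in Rpl22-/-, so the groups overlapped. From 80 to 90 Mb they were 0.21, -0.48 and 0.27 in Rpl22+/+ against 0.28, 0.086 and 0.35 in Rpl22-/-, which also overlapped. From 30 to 40 Mb (16 genes) the offsets were 0.15, -0.41 and 0.18 against 0.33, 0.16 and 0.27, with an overlap as well. Rpl22+/+ replicate 2 was the low library in all 3. Relative to the other autosomes, the window from 80 to 90 Mb was at 0.24 with all libraries and -0.015 without it, the one from 20 to 30 Mb at 0.35 and 0.10, the one from 30 to 40 Mb at 0.27 and 0.17, and the one from 150 to 160 Mb at 0.60 and 0.70. The median GC content of the transcripts was 42.5% from 20 to 30 Mb and 44.4% from 80 to 90 Mb, against 55.7% from 150 to 160 Mb, and its part in these window values was tested only by the correction for GC content, which gave 0.11, 0.27 and 0.59 in the windows from 20, 80 and 150 Mb.

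**Figure D3:**
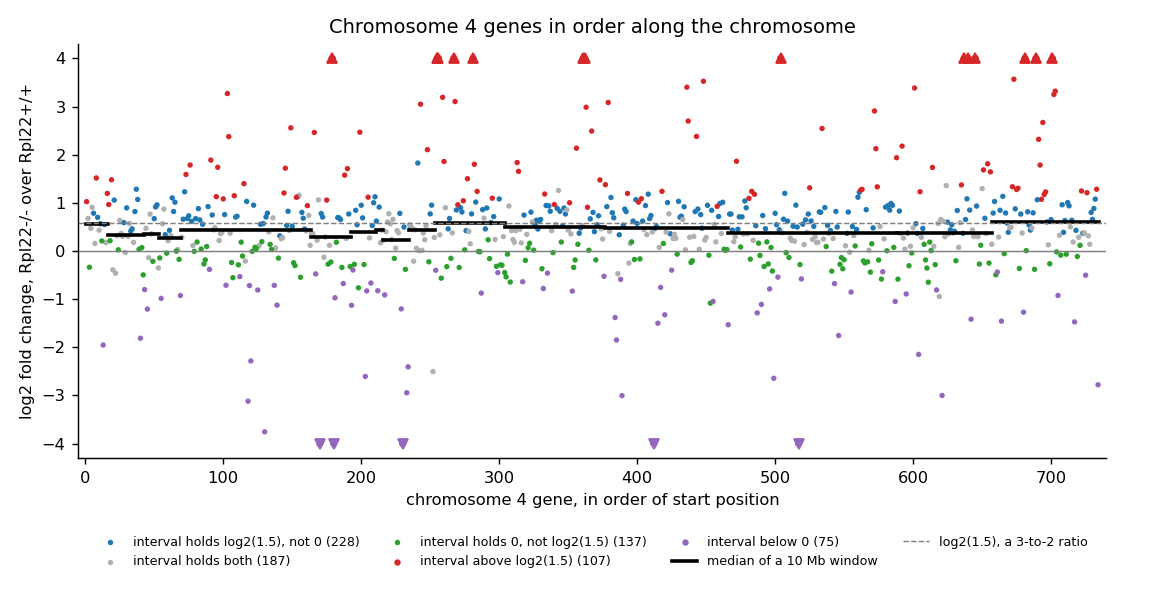
Log2 fold change of the 734 members in order of start position, coloured by where the 95% interval of the fold change lies, with the median of each 10 Mb window (black bars), a solid line at 0 and a dashed line at log2 of 1.5; triangles mark the 19 genes beyond 4 in either direction. The window medians stay between 0.24 and 0.60, while genes of the 5 interval groups are interspersed.

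To ask how far single genes followed a ratio of 3 to 2, the 95% interval of each log2 fold change was set against 0 and log2(1.5). The intervals are not adjusted for the number of genes, so a gene whose interval leaves out 0 need not pass at an adjusted p-value under 0.05. The interval held log2(1.5) and not 0 in 228 members (31.1%, against 11.9% on the other autosomes), and held 0 and not log2(1.5) in 137 (18.7% against 32.4%). It held both in 187 (25.5% against 26.8%), and such genes cannot be placed at this precision. It lay above log2(1.5) in 107 (14.6% against 6.17%), and below 0 in 75 (10.2% against 22.7%). The median SE of a log2 fold change was 0.199, so most intervals were wider than the distance between both marks. Among the 111 members with an SE under 0.15, 48 (43.2%) were in the first group, 26 (23.4%) in the second, 17 (15.3%) above log2(1.5), 16 (14.4%) below 0 and 4 undecided. The shares over 1898 such genes of the other autosomes were 16.9%, 46.5%, 2.58% and 30.6%, in the same order. Without Rpl22+/+ replicate 2, which narrowed the intervals, 164 members lay above log2(1.5) and 86 were undecided, and without Rpl22+/+ replicate 3, 281 were undecided.

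The interval groups were also compared in gene span and GC content, which the fold change does not use, and in depth, which is not independent of the groups because it sets the width of an interval. Median gene span was 20510 bases in members whose interval held log2(1.5) and not 0, and 33631 bases in those that held 0 and not log2(1.5). Median GC content of the transcripts was 51.7% in both and in members below 0, 54.3% in members above log2(1.5) and 49.9% in those whose interval held both marks. Median depth was 2787 and 4276 reads, whereas members above log2(1.5) had 1109 reads and those below 0 had 1961.

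Hmgn2 was the most abundant member with an interval that held log2(1.5) and not 0. It had 1326, 1654 and 1292 CPM in Rpl22+/+ and 2708, 2912 and 2645 CPM in Rpl22-/-, with no overlap, which gives 0.95 ± 0.17 (SE) on the log2 scale (adjusted p = 0.00686, edgeR). Csf3r, the receptor for granulocyte colony-stimulating factor, had 650, 716 and 670 CPM against 1085, 885 and 849 CPM, again without overlap (log2 fold change 0.47, 95% interval 0.10 to 0.84). Ybx1, a cold-shock domain RNA-binding protein, had 445, 732 and 471 CPM against 716, 880 and 808 CPM, and its groups overlapped through Rpl22+/+ replicate 2 (0.55, 95% interval 0.01 to 1.09). Rsrp1 was lowest in the same library, with 467, 204 and 446 CPM against 796, 529 and 761 CPM. Jun, a component of the AP-1 transcription factor, fell in this group only through its wide interval (0.37 to 3.29), since the Rpl22-/- libraries ranged from 787 to 4746 CPM.

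The 6 most abundant members whose interval held 0 and not log2(1.5) were Tln1, Cdc42, Eno1, Capzb, Lyn and Pik3cd. Tln1, which links integrins to actin, had 1846, 2957 and 1960 CPM in Rpl22+/+ and 1788, 1926 and 1833 CPM in Rpl22-/- (a change of -0.29, 95% interval -0.80 to 0.23). Capzb, which caps actin filaments, had 418, 666 and 458 CPM against 483, 551 and 513 CPM, a log2 fold change of 0.0046 (95% interval -0.48 to 0.49). Cdc42, a small GTPase that organizes actin, was at -0.21 and Eno1, a glycolytic enzyme, at -0.49. In each of these 4 genes the groups overlapped, with Rpl22+/+ replicate 2 the highest library of all. Lyn, a Src family kinase of myeloid cells, did not overlap, with 403, 519 and 422 CPM against 350, 386 and 328 CPM (-0.34, 95% interval -0.71 to 0.04). Pik3cd, a catalytic subunit of PI3-kinase, was at -0.25 (95% interval -0.71 to 0.20).

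**Figure D4:**
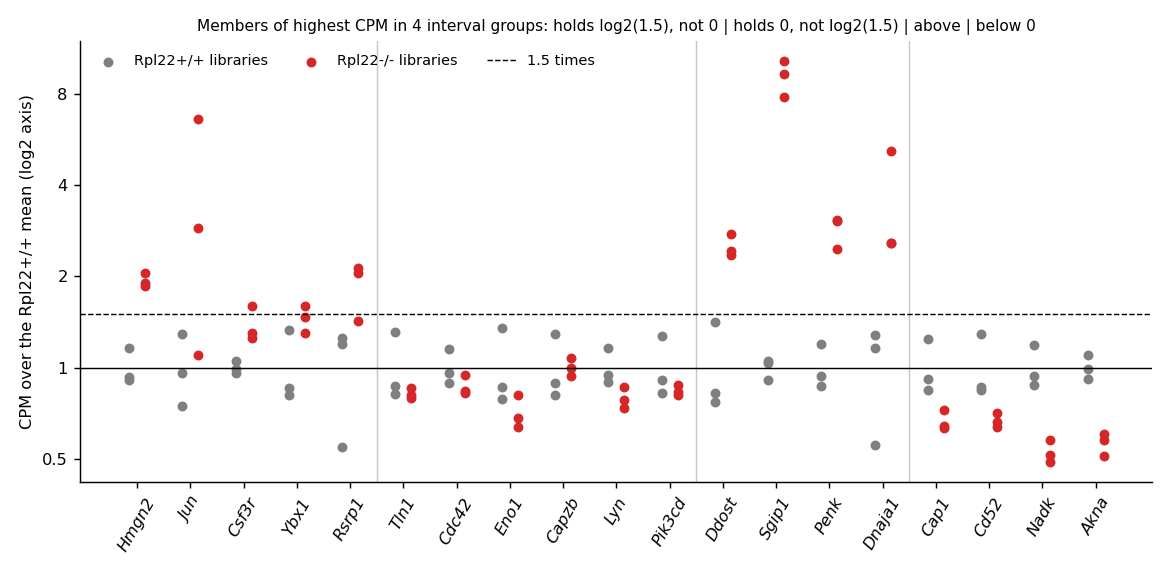
CPM of each library over the Rpl22+/+ mean of the gene (log2 axis) for members of highest CPM in 4 interval groups, 3 libraries per genotype, with lines at 1 and 1.5 times. The Rpl22-/- libraries of Hmgn2 and Ddost lie above all Rpl22+/+ libraries, those of Tln1 and Capzb lie among them, and those of Nadk and Akna lie below.

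Abundant genes above a ratio of 3 to 2 differed in role. Ddost, a subunit of the oligosaccharyltransferase that glycosylates new proteins, had 169, 311 and 182 CPM in Rpl22+/+ and 537, 610 and 520 CPM in Rpl22-/- (a change of 1.33, 95% interval 0.72 to 1.95). Dnaja1, a co-chaperone of Hsp70, had 119, 56.9 and 131 CPM against 264, 264 and 533 CPM (1.79, 95% interval 0.80 to 2.77). Penk, the enkephalin precursor, rose from 145 ± 24.7 to 416 ± 49.9 CPM (adjusted p = 0.00157, edgeR). Sgip1, an endocytic adaptor known mainly from neurons, had 73.9, 63.8 and 72.9 CPM against 721, 549 and 657 CPM, or 3.19 ± 0.17 on the log2 scale (adjusted p = 8.4e-05, edgeR).

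The most abundant members with an interval below 0 were Cap1, Cd52, Nadk and Akna. Nadk, the cytosolic kinase that makes NADP from NAD, had 579, 788 and 620 CPM in Rpl22+/+ and 342, 383 and 322 CPM in Rpl22-/- (a change of -0.92 ± 0.17, adjusted p = 0.0088, edgeR). Akna, an AT-hook protein of centrosomes and immune cells, had 423, 505 and 455 CPM against 277, 236 and 265 CPM (-0.83 ± 0.14, adjusted p = 0.00663). Cap1, an actin-binding protein, was at -0.59 (95% interval -1.04 to -0.14) and Cd52, a small surface glycoprotein of leukocytes, at -0.58 (95% interval -1.06 to -0.10). Neither Cap1 nor Cd52 passed at an adjusted p-value under 0.05. None of these 4 genes had overlapping groups. Cpne3, a calcium-dependent phospholipid-binding protein and the most abundant member from 10 to 20 Mb, fell further, from 406, 316 and 380 CPM to 122, 101 and 91.2 CPM (-1.81 ± 0.17, adjusted p = 0.000705, edgeR), in a window whose median was 0.34.

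The largest departures were genes near silence in one genotype. Angptl7 (148579640 to 148584917) had 0.0285, 0.0270 and 0.0267 CPM in Rpl22+/+ and 37.5, 37.5 and 34.1 CPM in Rpl22-/- (adjusted p = 9.9e-06, edgeR). Megf6, a protein of EGF-like repeats, had 0.328, 0.270 and 0.200 CPM against 105, 107 and 83.4 CPM, or 8.53 ± 0.26 on the log2 scale (adjusted p = 1.8e-05). Tie1, a receptor tyrosine kinase of endothelial cells, had 0.498, 0.311 and 0.321 CPM against 74.5, 68.8 and 62.0 CPM (7.50 ± 0.26, adjusted p = 2.5e-05). Each of these genes was on in all Rpl22-/- libraries and nearly off in all Rpl22+/+ libraries. Beside Tie1, the 4 stromal and endothelial markers summed to 59.7 to 71.1 CPM in Rpl22+/+ and 74.2 to 94.9 CPM in Rpl22-/-, of which Pecam1 made up most, while Cdh5, the endothelial cadherin, was under 1 CPM in every library.

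Masp2, a serine protease of the complement lectin pathway, had 4 reads in Rpl22+/+ and 548 in Rpl22-/-, all libraries added, a ratio per unit depth of 123 (95% counting interval 47.9 to 454; adjusted p = 0.00118, edgeR). This interval covers only counting error, because the reads carry no molecular identifiers. Each Rpl22-/- library, at 1.64 to 3.85 CPM, was above all Rpl22+/+ libraries.

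In the opposite direction, Lin28a went from 75.9, 90.1 and 73.1 CPM in Rpl22+/+ to 0.561, 0.739 and 0.557 CPM in Rpl22-/- (a change of -6.99 ± 0.21, adjusted p = 1.8e-05, edgeR). Fbxo10, an F-box protein, went from 36.1, 38.3 and 38.3 CPM to 3.10, 2.60 and 2.67 CPM (-3.76 ± 0.15, adjusted p = 3.5e-05, edgeR). Reck, a membrane inhibitor of matrix metalloproteinases, went from 22.6 ± 0.739 to 2.60 ± 0.209 CPM (SD, n = 3 each) with a log2 fold change of -3.12 ± 0.15 (adjusted p = 6.1e-05, edgeR). Mycl, a MYC family member, was at 5.88 to 10.5 CPM against 0.428 to 1.26 CPM (-3.00 ± 0.45, adjusted p = 0.00371, edgeR), and Cdkn2a, which encodes the p16Ink4a and p19Arf tumor suppressors, at 8.06 to 15.3 CPM against 1.18 to 1.57 CPM (-2.94 ± 0.32, adjusted p = 0.00114, edgeR). In none of these did the groups overlap. A further gene identifier with a large fall carries the symbol Pakap, which a second identifier of overlapping position shares. It had 405 reads in Rpl22+/+ and 0 in Rpl22-/-, but reads of the overlapping identifiers may have been split between them, so the value is uncertain. The same holds for the pseudogene Ftl2-ps, with 41630 reads in Rpl22+/+ and 8 in Rpl22-/-, since it shares sequence with its parent gene.

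Around Rpl22 the genes differed sharply from one to the next. Chd5, a chromatin remodeler, starts 4579 bases after Rpl22 ends and had 0.612, 0.972 and 0.468 CPM in Rpl22+/+ against 23.3, 25.8 and 29.4 CPM in Rpl22-/- (a change of 5.25 ± 0.32, adjusted p = 0.000125, edgeR). Kcnab2, a potassium channel subunit that follows, had 218, 385 and 239 CPM against 263, 300 and 284 CPM (0.01), and Nphp4, a cilium protein, 2.52, 3.46 and 2.24 CPM against 4.97, 4.44 and 5.04 CPM (0.81, 95% interval 0.28 to 1.35). On the other side, Icmt, which methylates prenylated proteins, was at 0.37, Acot7, an acyl-CoA thioesterase, at 0.77 and Espn, an actin-bundling protein, at -0.36. The 29 members that start within 2 Mb of Rpl22, itself included, had a median of 0.77 and ranged from -1.46 to 8.53, with 25 above 0.

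Lists of genes of common function, written from general knowledge with earlier results of these data known, were next read for their chromosome 4 members beside the members of the same list on the other autosomes but 9. In 12 lists with at least 4 members on chromosome 4, the median was higher on chromosome 4 in 11, the exception being cancer genes. The values below are descriptions, and no list was tested as a set. Counts of members that passed stand beside a share of 34.5% higher and 7.22% lower over all chromosome 4 genes, so a list near those shares shows nothing particular to itself.

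**Figure D5:**
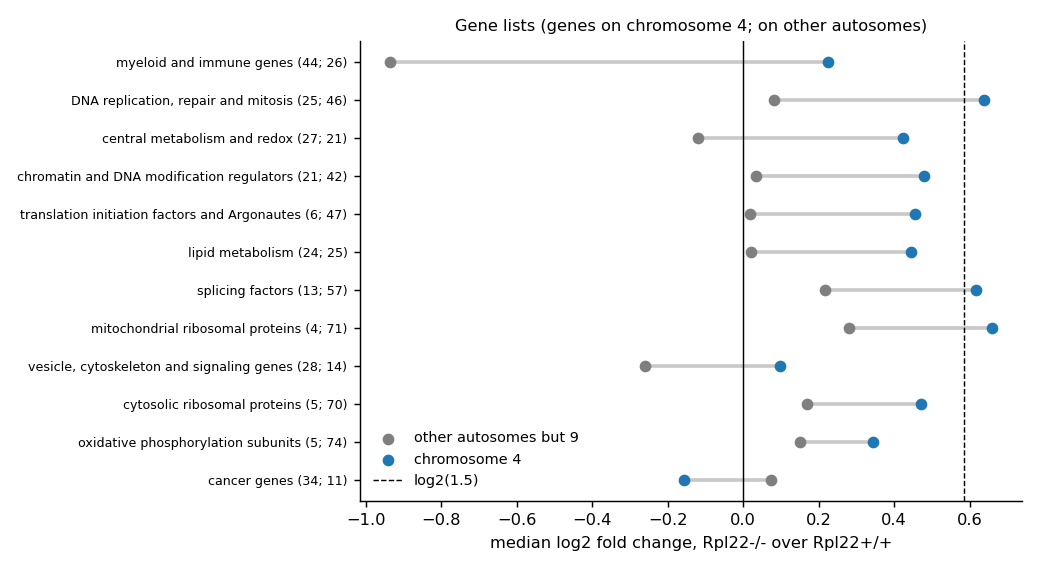
Median log2 fold change of the chromosome 4 members (blue) and of the members on the other autosomes but 9 (grey) for 12 lists of genes with at least 4 members on chromosome 4, with the number of genes in brackets; lines mark 0 and log2 of 1.5. The chromosome 4 point lies to the right of the other point in 11 lists and to the left for cancer genes.

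Among the cytosolic ribosomal protein genes of chromosome 4, Rpl11 was at a log2 fold change of 0.81 (95% interval 0.22 to 1.40), Rps20 at 0.47 and Rps6 at 0.42, with Rpl22 itself below 0. Rpl11 had 221, 372 and 210 CPM in Rpl22+/+ and 430, 523 and 453 CPM in Rpl22-/-. Its groups did not overlap, and Rpl22+/+ replicate 2 was the library nearest to Rpl22-/-. Rps20 and Rps6 had overlapping groups and intervals that held 0. The median of the 5 genes of this list was 0.47, against 0.17 for 70 ribosomal protein genes elsewhere. The mitochondrial ribosomal protein genes Mrpl50 (0.94 ± 0.12, adjusted p = 0.00238, edgeR), Mrpl37 (0.81), Mrps15 (0.51) and Mrpl20 (0.50) had a median of 0.66 against 0.28 for 71 elsewhere. Mrpl50 did not pass with the correction for GC content (log2 fold change 0.73, adjusted p = 0.146, with a range of 5.3e-07 to 0.146 over 18 alternatives).

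Splicing factors had 13 of 13 members above 0, 8 of them at an adjusted p-value under 0.05 and none lower (median 0.62, against 0.22 for 57 elsewhere, of which 4 were higher and none lower). Sfpq, a splicing and paraspeckle protein, had 353, 338 and 337 CPM in Rpl22+/+ and 573, 515 and 586 CPM in Rpl22-/- (0.70, 95% interval 0.39 to 1.01). The others of highest level were Srrm1 at 0.43, Ptbp3 at 0.26 and Thrap3 at 0.16, the last with an interval that did not reach log2(1.5). Genes of DNA replication, repair and mitosis were likewise above 0 in 25 of 25, with 8 higher at an adjusted p-value under 0.05 and none lower (median 0.64, against 0.08 for 46 elsewhere, of which 1 was higher and 2 lower). That count was near the share over the whole chromosome. Rcc2, a regulator of chromosome condensation, had 206, 353 and 206 CPM against 432, 493 and 436 CPM (0.83, 95% interval 0.25 to 1.41), and Stmn1 and Nudc, which act on microtubules, were at 0.62 and 0.66. Plk3, a stress-responsive kinase, varied from 19.5 to 342 CPM among the Rpl22-/- libraries.

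Chromatin regulators had a median of 0.48, against 0.03 for 42 elsewhere, with 18 of 21 above 0, 8 higher at an adjusted p-value under 0.05 and none lower, where 3 were higher and 6 lower of those elsewhere. The share that was higher was again near that of the chromosome. Hdac1, a histone deacetylase, had 117, 163 and 122 CPM in Rpl22+/+ and 232, 266 and 225 CPM in Rpl22-/- (0.85, 95% interval 0.43 to 1.26). Arid1a, a subunit of the SWI/SNF remodeler, was at 0.51 with groups that did not overlap, and Rbbp4, a histone-binding subunit of several complexes, was at 0.23. Mllt3, the gene of the AF9 protein, is a member of this list at 0.38, with 8.09, 4.71 and 7.80 CPM against 9.73, 8.18 and 8.91 CPM, and reads of the Mll-AF9 fusion and of Mllt3 cannot be told apart in these sums.

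Of 27 genes of central metabolism and redox balance, 11 were higher and none lower at an adjusted p-value under 0.05 (median 0.42, against -0.12 for 21 elsewhere, of which 3 were higher and 2 lower). Pgd, an enzyme of the pentose phosphate pathway, was at 0.30, and Eno1 and Akr1a1, an aldehyde reductase, at -0.49 and -0.37. The 5 genes of oxidative phosphorylation had a median of 0.34, against 0.15 for 74 elsewhere, with Atp5if1, the inhibitor of ATP synthase, at 1.18 ± 0.20 (adjusted p = 0.00586, edgeR), Ndufb6 at 0.68, Uqcrh at 0.34 and Sdhb at 0.04. Of 24 genes of lipid metabolism, 9 were higher and 2 lower (median 0.44, against 0.02 for 25 elsewhere, of which 1 was higher and 3 lower), and the 4 of highest level were Elovl1, a fatty acid elongase, at 0.48, Scp2, a sterol carrier, at -0.02, Plin2, a lipid droplet protein, at -0.15 and Lypla2, a lysophospholipase, at -0.18. Psmb2, the single proteasome subunit among the members, was at 0.35 against a median of 0.06 for 43 elsewhere, and the 6 translation initiation factors and Argonautes had a median of 0.45 against 0.02 for 47.

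Cytoskeletal, vesicle and signaling genes were nearer to no change, with a median of 0.10 over 28 genes, 3 higher and none lower at an adjusted p-value under 0.05, against -0.26 for 14 elsewhere, of which 1 was higher and 2 lower. In 14 of the 28 the interval held 0 and not log2(1.5), Tln1, Cdc42 and Capzb among them. The difference between this list on chromosome 4 and elsewhere was 0.36.

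The list of cancer genes was the one whose median was lower on chromosome 4 than elsewhere. It was written with earlier results of these data known, holds Lin28a, Mycl and Cdkn2a named above, and has few members elsewhere. Its median therefore describes the listed genes and not cancer genes in general. Of 34 members, 15 were above 0, 4 were higher and 8 lower at an adjusted p-value under 0.05, and the median was -0.16, against 0.07 for 11 elsewhere, of which 3 were higher and 2 lower. Besides Lin28a, Mycl and Cdkn2a, the lower genes include Pax5, a transcription factor of B cells, with 157, 105 and 129 CPM in Rpl22+/+ and 62.2, 78.9 and 81.6 CPM in Rpl22-/- (-0.81 ± 0.20, adjusted p = 0.0232, edgeR), and Lck, a kinase of T cells, with 13.5, 17.1 and 10.8 CPM against 6.12, 7.19 and 6.69 CPM (-1.05 ± 0.20, adjusted p = 0.0103). The marker sums moved with them. The 4 B cell markers, of which Pax5 is one, summed to 485 to 610 CPM in Rpl22+/+ and 292 to 449 CPM in Rpl22-/-, and the 4 T cell markers to 26.8 to 32.9 CPM and 9.45 to 11.3 CPM, and all 4 T cell markers were lower. Their part in these values was not tested. Pax5 passed in only 10 of 18 alternatives (adjusted p = 0.00365 to 0.0943) and, among the fits that left out a library, only without Rpl22+/+ replicate 2.

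Tal1, a transcription factor of blood stem and erythroid cells, had 0.513, 0.702 and 0.615 CPM in Rpl22+/+ and 1.15, 1.94 and 3.43 CPM in Rpl22-/- (1.84, 95% interval 0.81 to 2.87). Rhd, an erythroid blood group antigen on the list of immune genes, had 0.527, 1.23 and 0.895 CPM against 3.66, 5.62 and 6.19 CPM (2.55 ± 0.38, adjusted p = 0.00376, edgeR). Neither gene had overlapping groups. The 4 erythroid markers, globins included, summed to 26.4 to 41.7 CPM in Rpl22+/+ and 199 to 354 CPM in Rpl22-/-, with all 4 at an adjusted p-value under 0.05. Their part in Tal1 and Rhd was not tested. Of the 4 megakaryocyte markers, which summed to 2.80 to 4.49 CPM and 3.30 to 3.65 CPM, Pf4 and Ppbp were at or near 0 in every library.

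Myeloid and immune genes split in both directions, with 14 of 44 higher and 9 lower at an adjusted p-value under 0.05 and a median of 0.22, against -0.94 for 26 elsewhere, of which 6 were higher and 13 lower. Among the higher genes, C1qa, which lies beside C1qb and C1qc and encodes a chain of complement C1q, went from 2.31, 3.38 and 2.36 CPM to 5.21, 7.81 and 6.32 CPM (1.27, 95% interval 0.67 to 1.86), with C1qb at 1.12 and C1qc at 1.22. Among the lower genes, Cnr2, a cannabinoid receptor of immune cells, went from 56.0, 76.4 and 58.9 CPM to 20.1, 18.8 and 17.8 CPM (-1.76 ± 0.16, adjusted p = 0.0006, edgeR). Laptm5, a lysosomal protein of blood cells, and Padi4, which citrullinates histones in neutrophils, were at 0.30 and 0.36. Marcksl1, a substrate of protein kinase C, varied between libraries, with 19.4, 41.5 and 144 CPM in the Rpl22-/- libraries.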

How the data were processed

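The 3 Rpl22+/+ and 3 Rpl22-/- Mll-AF9 libraries of CD11b+Gr1+ splenocytes were grouped by sample titles. Per the study's methods and the labels, the authors made stranded poly(A) libraries, used Trimmomatic for trimming and Salmon for quantifying transcripts, with GRCm39 as the build (versions and transcript set are not given in the sources used here). The authors deposited estimated counts and TPM per transcript, and a table of their DESeq2 comparison (base mean, fold changes, p-values), of which only gene positions were used. Low counts limit precision, and depth ranged from 35828500 to 102866127 reads.

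Gene sums of the estimated counts followed GENCODE vM21 (136036 of 276623 transcripts matched on identifiers without versions) and were rounded. No position of a member was taken from that annotation, but genes outside the deposited table were placed on chromosomes by it. Genotypes were compared over the 16656 genes that passed filterByExpr by edgeR 4.0.16 under R 4.3.3 (quasi-likelihood F test, TMM, genotype as the only term, Benjamini-Hochberg over all genes). A call needed an adjusted p-value under 0.05 and a log2 fold change beyond 1 in size. The SE is that implied by the F statistic, and 95% intervals use the t quantile of the fit. Window and list values are medians, with no test. Figures used matplotlib 3.10.9. The fit was also run on simulated counts, and the outcome of that run is not reported here.

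Named were Rpl22 and the 3 members on either side, the 4 members of highest CPM of each list (any of the myeloid and cancer lists), the 6 largest called changes with non-overlapping groups in each direction (no pseudogene, predicted gene or receptor segment), the most abundant members of each interval group and window, and the members nearest the 50-read minimum. Some genes that these rules name are not reported here. Ftl2-ps was added after its values were seen, and Mllt3 is also on the cancer list. Members, lists and markers were chosen with earlier results of these data known. Alternatives were other scalings (DESeq2 size factors, upper quartile, none, TMM without chromosomes 4 and 9), DESeq2 1.42.0, limma-voom (limma 3.58.1), limma on log2(TPM + 1) or log2(TPM + 0.1), no filter, a GC correction (a lowess curve of log2 CPM against transcript GC, per library), the replicate number as a block, the block with that correction, each library left out, other read minimums, a 99% interval and windows of 5 and 20 Mb.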

Additional observations from a re-analysis of the deposited data

Results flagged for a closer look

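Genes outside the deposited table carried the same direction of shift. The comparisons with the other autosomes above do not use them, though the shares over all 16656 genes tested do. GENCODE vM21 places 47 further genes with a mean of at least 50 reads on chromosome 4, and 33 of them had a log2 fold change above 0, against 643 of 1053 such genes of the other autosomes but 9. The median of the 47 was 0.48, against 0.19 for those elsewhere, a shift of 0.284 log2 units. These genes come from the same 6 libraries as the members, so they give no independent support.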

How the results depend on the processing

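The shift of chromosome 4 relative to the other autosomes (0.43) kept its direction in all alternatives run, from 0.37 with limma on log2(TPM + 1) to 0.45, and from 0.40 to 0.45 with each library left out. The median of all genes was 0.07, and 0.19 with no composition factor. The lowest window, relative to the other autosomes, was 0.30 with limma-voom, 0.16 with log2(TPM + 0.1), 0.30 with the replicate block, 0.11 with the GC correction, -0.0042 with windows of 5 Mb and 0.32 with 20 Mb, and it ran from -0.015 (without Rpl22+/+ replicate 2) to 0.30 without single libraries. The highest window was 0.49 with log2(TPM + 1), 0.77 with windows of 5 Mb and 0.52 with 20 Mb, and 0.58 to 0.70 without single libraries. Smaller or larger windows hold other numbers of genes, and the other causes were not tested.

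Members above log2(1.5) numbered 172 with no composition factor, 162 with log2(TPM + 0.1) and 77 to 164 without single libraries. Undecided members numbered 357 with a 99% interval and 86 to 281 without single libraries. Called lower were 21 with log2(TPM + 1). Without single libraries, 99 to 147 were called higher and 32 to 40 lower, 129 to 372 passed as higher at any size and 41 to 77 as lower. A minimum of 1000 reads, which leaves fewer genes, gave 68 called higher, 14 lower, 168 and 28 at any size, 57 above log2(1.5) and 47 below 0. Of 23 genes with an adjusted p-value printed, 21 passed in all 18 alternatives, and Pax5 and Mrpl50 did not. All 23 had passed in the main fit, so this count does not cover the named genes that did not pass there.

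Replicate numbers were not taken to pair libraries, since the labels name no shared source. Deviations from the group means correlated at 0.57, 0.71 and 0.13 for libraries numbered 1, 2 and 3 over 13202 genes of at least 50 reads on average, and at 0.48, 0.63 and 0.097 over all genes tested. Rpl22+/+ replicate 3 correlated better with Rpl22-/- replicate 1 (0.43 and 0.36) than with its own number. With the replicate block, 134 members were called higher and 36 lower, 308 and 67 passed at any size, the shift was 0.42 and 109 intervals were undecided. The block with the GC correction gave 75 undecided and 85 lower at any size.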
